A study of Mus musculus with 10 samples.

Results

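The receptor system of calcitonin gene-related peptide (CGRP) and adrenomedullin was read out in the lumbar spinal cord of mice given paclitaxel or vehicle. It was taken as 8 genes of the 24411 listed, picked by gene symbol: the receptor gene Calcrl, the co-receptor genes Ramp1, Ramp2 and Ramp3, the peptide genes Calca, Calcb and Adm, and Crcp, which encodes the CGRP receptor component protein. All 8 passed the filter on low counts, as did 13287 genes in all. Paclitaxel is a microtubule-stabilising cancer drug with painful peripheral neuropathy as a side effect, and the study asks about Calcrl and the histone methyltransferase MLL2 in this neuropathy. The paclitaxel group and the vehicle group held 5 libraries each. The labels do not state strain, sex, age, dose, time after treatment or the make-up of the vehicle. Nor is it stated that each library came from a separate animal, so p-values measure the spread between libraries, which may be technical.

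CALCRL, the protein of Calcrl, is a receptor of class B that cannot signal at the cell surface alone. A small single-pass protein of the RAMP family carries it there and sets which peptide it binds. With RAMP1 it is the CGRP receptor, and with RAMP2 or RAMP3 it is an adrenomedullin receptor. Both couple mainly to Gs and cyclic AMP. In the cord CGRP is known as a peptide of primary sensory endings in the dorsal horn, where it promotes pain signalling, and of motor neurons, while adrenomedullin acts mainly on vessels. The cell bodies of sensory neurons lie in the dorsal root ganglia, outside the cord, so mRNA made there is not sampled except where it travels in axons.

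Promoter windows from RefSeq (build GRCm38.p6), 250 bases before to 50 after a gene's start, were at hand for 5 of the 8 genes. Those of Calcrl (chr2:84425217-84425516, minus strand) and Calca (chr7:114636308-114636607, minus strand) are shown because these genes had the differences farthest above and below 0 among the 8. They run 5′ to 3′ on the strand of the gene, and capitals mark CG dinucleotides, the sites of DNA methylation. In both, the start position used lies inside the RefSeq span of the gene, which reaches 84425405 for Calcrl and 114636910 for Calca. The whole Calca window lies within that span, so the bases before the outermost start of Calca are not shown.
Calcrl: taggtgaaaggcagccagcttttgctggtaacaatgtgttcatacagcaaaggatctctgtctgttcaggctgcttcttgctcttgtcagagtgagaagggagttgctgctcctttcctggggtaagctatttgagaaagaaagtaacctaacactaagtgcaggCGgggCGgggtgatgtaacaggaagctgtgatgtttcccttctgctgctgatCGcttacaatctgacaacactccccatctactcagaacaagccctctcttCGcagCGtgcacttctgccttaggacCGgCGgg
Calca: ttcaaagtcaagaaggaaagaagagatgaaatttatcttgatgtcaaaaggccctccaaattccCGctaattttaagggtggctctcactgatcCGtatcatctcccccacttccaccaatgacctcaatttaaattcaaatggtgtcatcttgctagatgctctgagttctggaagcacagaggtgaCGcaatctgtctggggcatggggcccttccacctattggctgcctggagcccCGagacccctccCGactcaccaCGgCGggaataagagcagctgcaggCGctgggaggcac
The Calcrl window held 7 CG dinucleotides and the Calca window 8, against a median of 7 over 32851 mouse promoter windows of the same length. On both strands, the GC box letters GGGCGG matched once in Calcrl and not in Calca, and 35.7% of all windows held a match. The letters TGACG, the core of the cyclic AMP response element, matched once in Calca and not in Calcrl, and 20.8% of all windows held a match. The TATA box letters TATAAA matched in neither, and 13.6% of all windows held a match. A match is a description of these letters and not a site of binding.

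Levels of the 8 genes were moderate to low. Library totals ran from 3676259 to 5432072 in the paclitaxel group and from 4585899 to 7791594 in the vehicle group, and 3 counts corresponded to 0.385 to 0.816 CPM (read counts scaled to equal library totals). Among all genes tested, Ramp1 had a higher mean CPM than 70.8% and Ramp3 than 2.08%. Across the 10 libraries Ramp1 held 251 to 479 reads, Calca 71 to 177, Crcp 81 to 189, Calcrl 40 to 99, Ramp2 36 to 92, Calcb 21 to 69, Adm 10 to 23 and Ramp3 8 to 27. For Ramp3 and Adm counting error alone gave a coefficient of variation of 29.8% and 25.8%, so differences between single libraries are not readable for these genes. Ramp1 had the smallest counting error, 5.66%. Paclitaxel replicate 3 stood apart: chi-square per degree of freedom over all genes was 4.84 to 6.55 in its pairs with the other paclitaxel libraries, 1.59 to 2.94 in the other paclitaxel pairs and 1.87 to 4.33 in the vehicle pairs. It also had the lowest summed level in 6 of 10 lists of cell type markers: motor neurons, endothelium, pericytes and smooth muscle, sensory neurons, microglia and oligodendrocytes. Results that rest on it are given without it too.

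Per length, by means over all 10 libraries, the order was Ramp1, Calca, Crcp, Calcb, Ramp2, Calcrl, Adm and Ramp3. On the scale of CPM per kilobase of the longest transcript, Ramp1 had a mean level of 26.8 over the 10 libraries and Calca of 26.6. Crcp followed at 15.5, Calcb at 9.75, Ramp2 at 9.71, Calcrl at 2.82, Adm at 2.22 and Ramp3 at 1.92. The ranges over libraries overlapped between Ramp1 and Calca, between Calca and Crcp, narrowly between Crcp and Calcb (lowest Crcp 13.4, highest Calcb 13.5), between Calcb and Ramp2, and among Calcrl, Adm and Ramp3. Ramp2 and Calcb lay above Calcrl in every library, since the highest Calcrl level was 3.74 and the lowest of Ramp2 and Calcb were 7.84 and 4.63. The level of Ramp1 depends on the length taken: with the median of its 3 transcripts in place of the longest it was 73.1, and Ramp1 stayed first. Its per-length share among the RAMP genes and its per-length ratio to Calcrl would rise likewise. Both are given for the longest transcript only, and their SDs do not cover this choice. Ramp1 made up 69.4% ± 3.75 of the summed per-length level of the 3 RAMP genes with paclitaxel and 70.1% ± 3.88 with vehicle (SD, n = 5 each). Ramp2 made up 25.5% ± 3.36 with paclitaxel and 25.0% ± 3.32 with vehicle, and Ramp3 5.11% ± 1.48 with paclitaxel and 4.91% ± 1.34 with vehicle (SD, n = 5 each).

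**Figure D1:**
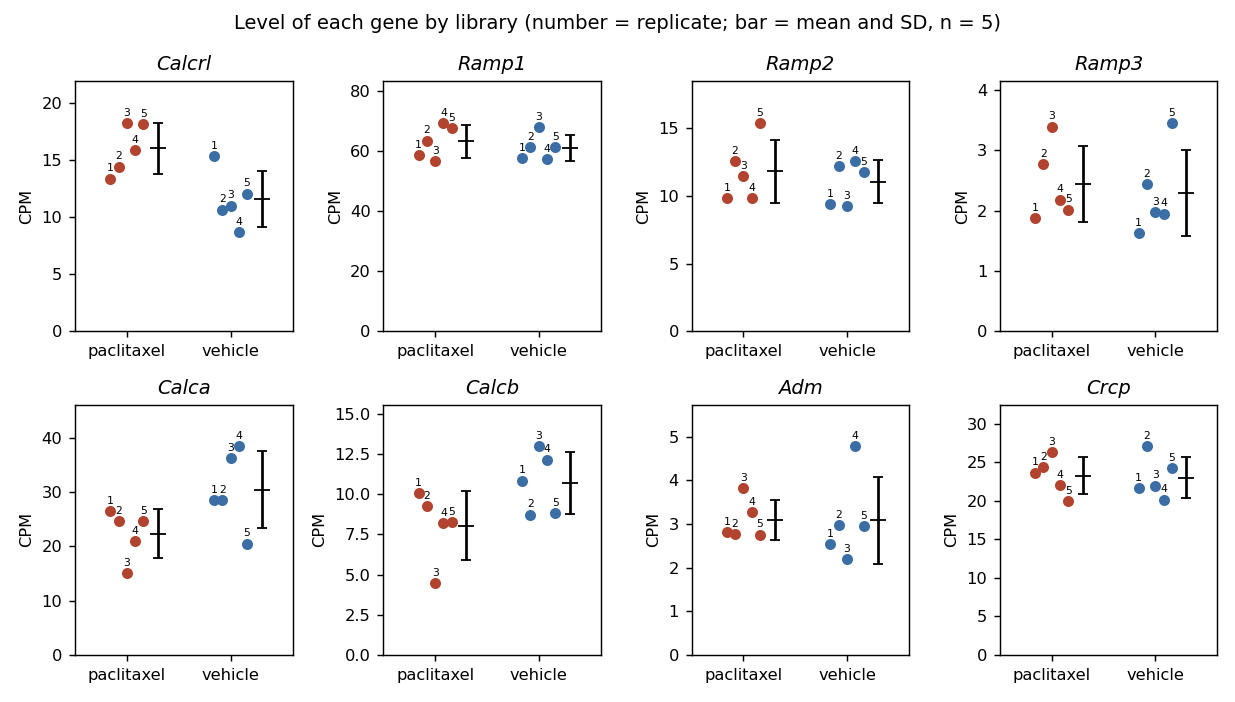
Level in CPM (vertical axes, from 0) of the 8 genes in paclitaxel libraries (left, red) and vehicle libraries (right, blue); numbers are replicates and bars are mean and SD of 5 libraries. Calcrl ran from 13.4 to 18.3 CPM with paclitaxel and from 8.68 to 15.4 CPM with vehicle, Calca and Calcb were lowest in paclitaxel replicate 3, and the groups overlapped for every gene.

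The receptor gene Calcrl was higher in value with paclitaxel. Among paclitaxel libraries replicates 3 and 5 were highest, at 18.3 and 18.2 CPM, and replicate 4 had 15.8, replicate 2 had 14.4 and replicate 1 had 13.4 CPM. Among vehicle libraries replicate 1 had 15.4 CPM and replicates 2 to 5 had 10.7, 11, 8.68 and 12.05 CPM. The single high vehicle library lay above paclitaxel replicates 1 and 2, and the other 4 vehicle libraries lay below all 5 paclitaxel libraries. The vehicle mean was exceeded by all 5 paclitaxel libraries, as happened in 6.71% of all genes tested, and 0.467% of all genes had paclitaxel libraries wholly above vehicle libraries. The difference did not pass over all genes: the log2 fold change was 0.46 with an SE of 0.14 (quasi-likelihood test of edgeR, adjusted p = 0.792). Before adjustment that p was 0.00317, and the exact permutation test on log2 CPM, two-sided, gave p = 0.0238. Calcrl is the gene the study set out from, so its rank of 47 by p among 13287 genes is no independent evidence. Without vehicle replicate 1 the log2 fold change was 0.59, and without vehicle replicate 4 it was 0.39.

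Of the 8 genes, 3 had an unadjusted p under 0.05 in edgeR (Calcrl, Calca and Calcb), against 6.07% of all genes tested, and 0 had an adjusted p under 0.05, against 0% of all genes tested. The calls of Calca and Calcb rest on single libraries. With each library left out in turn Calcrl kept an unadjusted p under 0.05 in 10 of 10 cases, Calca in 2 and Calcb in 4, and the count was 1 of 8 without paclitaxel replicate 3, 4 or 5 or vehicle replicate 1, 3 or 4. By direction, 1 of 8 was higher at that unadjusted p, with 2.94% of all genes, and 2 of 8 were lower, with 3.12% of all genes. The median over all genes tested was a log2 fold change of -0.003 with a median size of 0.08. Over all genes edgeR gave 806 at an unadjusted p under 0.05. At an adjusted p under 0.05 DESeq2 called 1 gene of all tested, not one of the 8, and limma-voom called 0.

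The co-receptor genes did not pass, and their values differed little between the groups. Ramp1, the partner for CGRP, averaged 63.3 ± 5.58 CPM in paclitaxel libraries and 61.3 ± 4.30 CPM in vehicle libraries (SD, n = 5 each). Its 95% interval in log2 fold change, -0.11 to 0.20, reaches up to a 1.15-fold increase, against the 1.38-fold ratio fitted for Calcrl (95% interval 1.13 to 1.69). Ramp2, the partner for adrenomedullin in endothelium, averaged 11.8 ± 2.32 CPM in paclitaxel libraries and 11 ± 1.6 CPM in vehicle libraries (SD, n = 5 each; 95% interval -0.19 to 0.41). Paclitaxel replicate 5 had the highest Ramp2 level, 15.4 CPM, and without it the log2 fold change was -0.01. Ramp3, the other partner for adrenomedullin, averaged 2.45 ± 0.63 CPM in paclitaxel libraries and 2.29 ± 0.71 CPM in vehicle libraries (SD, n = 5 each). Its interval of -0.52 to 0.62 is too wide to tell a rise of the size fitted for Calcrl from a fall. The sum of the 3 RAMP levels ran from 70.5 to 85.3 CPM with paclitaxel and from 68.9 to 79.4 CPM with vehicle, so the groups overlapped.

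The CGRP peptide genes were lower in value with paclitaxel. Calca encodes α-CGRP and, by alternative splicing, calcitonin, which these gene-level counts do not separate. It had 26.5, 24.6, 15.1, 21.01 and 24.6 CPM in paclitaxel replicates 1 to 5, against 28.6, 28.5, 36.3, 38.4 and 20.5 CPM in vehicle replicates 1 to 5. All 5 paclitaxel libraries lay below the vehicle mean, as happened in 8.65% of all genes tested, but vehicle replicate 5 lay below 4 of them. Calcb, which encodes β-CGRP, had 10.1, 9.24, 4.46, 8.19 and 8.26 CPM with paclitaxel, against 10.8, 8.73, 13.0, 12.2 and 8.84 CPM with vehicle. Here too all 5 paclitaxel libraries lay below the vehicle mean, and vehicle replicates 2 and 5 lay within the paclitaxel range. The log2 fold changes were -0.42 (SE 0.19) for Calca and -0.39 (SE 0.18) for Calcb, and after adjustment over all genes neither passed (adjusted p from edgeR of 0.80 for Calca and 0.79 for Calcb). The exact permutation test gave p = 0.0873 for Calca and 0.0635 for Calcb. Calcb was at -0.23 without paclitaxel replicate 3, and without both paclitaxel replicate 3 and vehicle replicate 4 Calca was at -0.20 and Calcb at -0.19.

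Adm, the adrenomedullin gene, averaged 3.09 ± 0.46 CPM in paclitaxel libraries and 3.08 ± 1.00 CPM in vehicle libraries (SD, n = 5 each; log2 fold change 0.01, 95% interval -0.50 to 0.51). Its levels ran from 2.75 to 3.82 CPM with paclitaxel and from 2.20 to 4.77 CPM with vehicle, with 10 to 23 reads behind each value, and without vehicle replicate 4 the log2 fold change was 0.19. Crcp encodes a small intracellular protein that couples the CGRP receptor to its signalling and that is also a subunit of RNA polymerase III. It averaged 23.3 ± 2.39 CPM in paclitaxel libraries and 23.0 ± 2.68 CPM in vehicle libraries (SD, n = 5 each). Its 95% interval ran from -0.20 to 0.22 in log2 fold change.

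**Figure D2:**
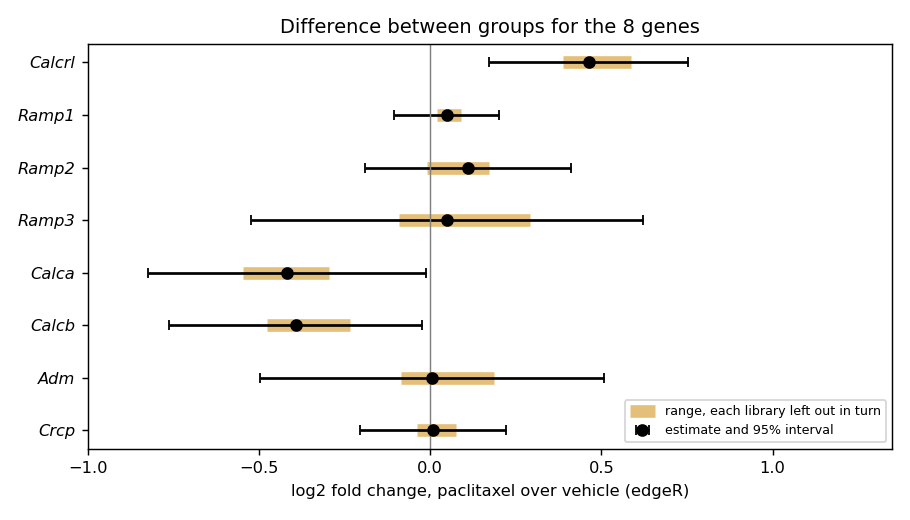
Log2 fold change of paclitaxel over vehicle (horizontal axis) for the 8 genes, with points and black bars for the edgeR estimate and its 95% interval and yellow bars for the range when each library was left out in turn. Calcrl stands at 0.46, Calca at -0.42 and Calcb at -0.39, while the intervals of the other 5 genes include 0.

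Within each library the other genes were set against Calcrl, which removes the scaling of libraries. Per length of the longest transcript, Ramp1 reads outnumbered Calcrl reads 8.42 ± 1.22 to 1 with paclitaxel and 11.5 ± 2.35 to 1 with vehicle (SD, n = 5 each). For Ramp2 the ratio was 3.07 ± 0.49 with paclitaxel and 4.17 ± 1.31 with vehicle, and for Ramp3 it was 0.61 ± 0.14 with paclitaxel and 0.81 ± 0.27 with vehicle (SD, n = 5 each). The ratio of Calca to Calcrl was 9.74, 8.37, 4.05, 6.52 and 6.65 in paclitaxel replicates 1 to 5, against 9.13, 13.1, 16.2, 21.7 and 8.36 in vehicle replicates 1 to 5. Vehicle replicates 2, 3 and 4 lay above every paclitaxel library, and vehicle replicates 1 and 5 lay within the paclitaxel range. That of Calcb ran from 1.24 to 3.83 with paclitaxel and from 3.58 to 7.10 with vehicle. The ratio of Adm to Calcrl was 0.68 ± 0.09 with paclitaxel and 1.01 ± 0.54 with vehicle, and that of Crcp 4.85 ± 0.87 with paclitaxel and 6.73 ± 1.40 with vehicle (SD, n = 5 each).

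All 7 ratios were lower in value with paclitaxel, and the groups overlapped in 7 of 7, while they did not overlap in that direction in 5.89% of all genes. The difference of mean log2 ratio was -0.92 (SE 0.33) for Calca and -0.92 (SE 0.34) for Calcb, and it ran from -0.46 to -0.37 for the other 5 genes. Exact permutation tests over every assignment of libraries to groups, two-sided, gave p = 0.0397 for Calca, 0.0238 for Calcb and 0.0476 for Crcp, then 0.0556 for Ramp1, 0.159 for Ramp2, 0.19 for Adm and 0.246 for Ramp3. The same test run on every gene set against Calcrl gave a lower ratio at a p under 0.05 in 62.3% of 13286 genes, so 3 of 7 is no more than the background. A higher ratio at that p occurred in 0 of 7, with 0.00753% of all genes. Single libraries moved this count and its background together. Without vehicle replicate 1 it was 7 of 7, with 79.8% of all genes, while without vehicle replicate 3 or 4 it was 0 of 7, with 38.1% and 31.4% of all genes. It was 1 of 7 without paclitaxel replicate 3, 4 or 5 or vehicle replicate 2, with 35.3% to 42.4% of all genes. The median difference over all genes was -0.49, the mirror of the higher Calcrl level itself, and no ratio of the 7 passed once p-values were adjusted over all genes (smallest adjusted p = 0.0688, for Calcb, by the exact permutation test). Set among all genes, the ratio differences of Calca and Calcb were lower than those of all but 1.29% and 1.25% of genes, a position that restates their own lower levels. The other 5 genes lay between 57.9% and 82.9%. Without both paclitaxel replicate 3 and vehicle replicate 4 the differences were -0.55 for Calca and -0.53 for Calcb (exact permutation p = 0.143 and 0.0857).

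**Figure D3:**
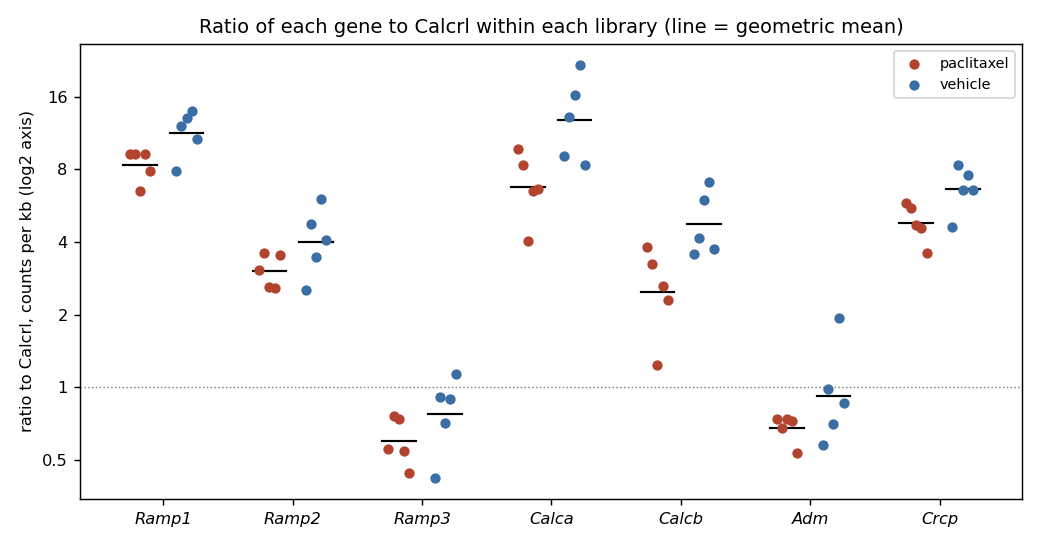
Ratio of each of 7 genes to Calcrl within each library, as counts per kilobase on a log2 axis, with paclitaxel (red) left of vehicle (blue) and lines at the geometric means. The groups overlap for every gene, and 3 vehicle libraries lie above all paclitaxel libraries for Calca.

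**Figure D4:**
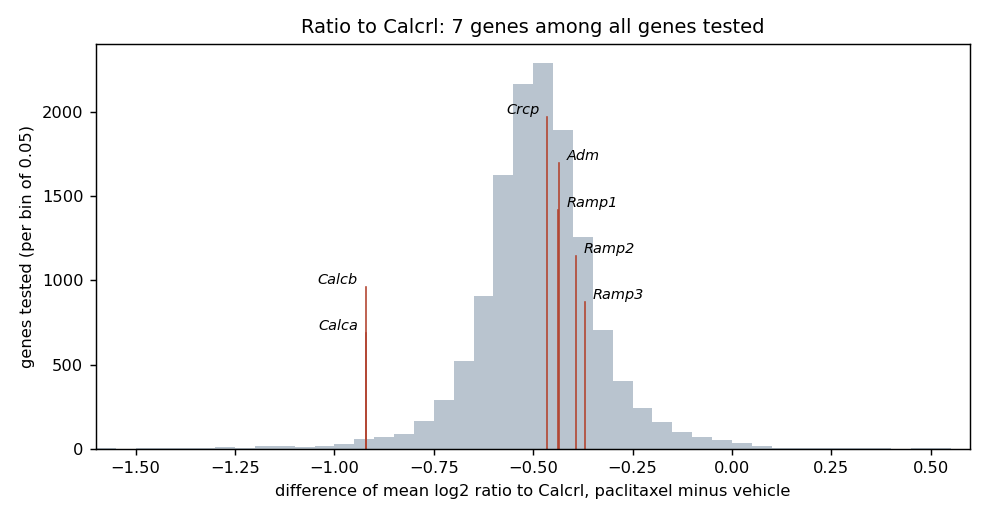
Number of genes tested (vertical axis) by difference of mean log2 ratio to Calcrl, paclitaxel minus vehicle (horizontal axis, bins of 0.05, 18 genes beyond the axis), with the 7 genes marked by lines. The bulk of all genes is centred on -0.49, where Ramp1, Ramp2, Ramp3, Adm and Crcp also lie, and Calca and Calcb lie at -0.92.

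Across the 10 libraries the CGRP peptide genes moved with each other. Calca and Calcb had a Pearson r of 0.91 on log2 CPM (permutation test, two-sided, p = 0.00026, adjusted p = 0.00728 over 28 pairs) and a Spearman rho of 0.82 (p = 0.00562, adjusted p = 0.157). An r with Calca as far from 0 as 0.91 occurred in 0.105% of all genes tested. The relation held as r = 0.83 without paclitaxel replicate 3 and vehicle replicate 4, the libraries farthest from the median of Calca. It was also present in deviations from the group means (r = 0.87, permutation p = 0.00204, adjusted p = 0.0571). Calca made up 73.2% ± 2.21 of the per-length sum of the pair with paclitaxel and 73.1% ± 2.75 with vehicle (SD, n = 5 each). The genes lie 79.6 kilobases apart on chromosome 7 (Calca from 114625981 to 114636910, Calcb from 114716555 to 114723368, GRCm38). Of 1678 stretches of 30 bases in Calca transcripts 35 also occur in Calcb, and the expected counts of both genes were whole numbers in 10 of 10 libraries.

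The receptor gene and the peptide genes ran in opposite directions in value. Calcrl had r = -0.74 with Calca and r = -0.66 with Calcb (permutation p = 0.0151 and 0.0301, adjusted p = 0.168 for both over 28 pairs), with Spearman rho of -0.66 and -0.67 (permutation p = 0.0435 and 0.0383, adjusted p = 0.244 for both). These values rest in part on paclitaxel replicate 3 and vehicle replicate 4, without which r was -0.44 and -0.42. In deviations from the group means r was -0.56 for Calca and -0.45 for Calcb (permutation p = 0.124 and 0.18). An r with Calcrl at least as far from 0 as that of Calca occurred in 4.47% of all genes. With its co-receptors Calcrl showed no relation at this depth: r was 0.17 with Ramp1, 0.08 with Ramp2 and 0.15 with Ramp3 (permutation p = 0.631, 0.82 and 0.678; rho 0.07, -0.08 and 0.18, permutation p = 0.866, 0.839 and 0.635). Without the same pair of libraries they were 0.23, 0.31 and -0.34, and the adjusted p was 0.933 for all 3 pairs.

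Of the 28 pairs, 6 had a permutation p under 0.05 for r and 1 passed after adjustment, that of Calca and Calcb. All 6 had an r of at least 0.66 in size, which 6.19% of all pairs of tested genes reached. The remaining 3 involved Ramp3, which had r = -0.71 with Calca, -0.67 with Calcb and 0.66 with Crcp (permutation p = 0.0227, 0.0283 and 0.0387, adjusted p = 0.168, 0.168 and 0.181). Spearman rho was -0.77, -0.62 and 0.66 for the same pairs (permutation p = 0.0126, 0.0611 and 0.0435). An r as far from 0 with Ramp3 occurred in 2.77%, 4.40% and 4.61% of all genes for the same pairs. In deviations from the group means r was -0.77, -0.71 and 0.66 (permutation p = 0.0220, 0.0198 and 0.0568, adjusted p = 0.206, 0.206 and 0.397). Without paclitaxel replicate 3 and vehicle replicate 5 the pooled r values were -0.33, -0.47 and 0.59. With 8 to 27 reads of Ramp3 per library these relations rest on sparse counts.

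**Figure D5:**
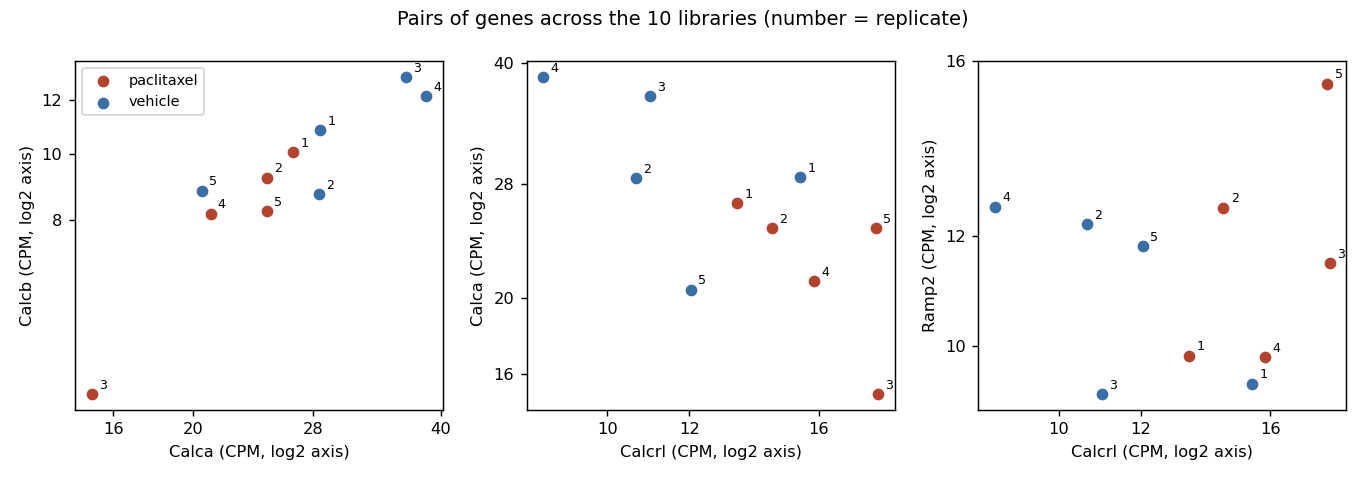
Levels in CPM (log2 axes) of Calcb against Calca, Calca against Calcrl and Ramp2 against Calcrl in the 10 libraries, paclitaxel in red and vehicle in blue, numbers for replicates. Calca and Calcb rise together over the libraries (r = 0.91), Calca is lower where Calcrl is higher (r = -0.74), and Ramp2 shows no trend with Calcrl (r = 0.08).

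The genes most like each of the 8 were taken as those with the highest r in deviations from group means over the 10 libraries, among 11359 or 11360 genes with at least 5 CPM and a proper symbol. For Calcrl they were Slc30a9 (r = 0.94), Spata6 (0.93), the potassium channel gene Kcnd2 (0.90), Pcnp (0.89) and the citrate transporter gene Slc13a5 (0.89). For Calca they were Nuak1 (0.94), Acot8 (0.94), the smooth muscle myosin gene Myh11 (0.93), Man1c1 (0.92) and the Notch ligand gene Jag1 (0.91). For Calcb they were the integrin gene Itgb5 (0.98), Mmp17 (0.96) and Caskin2 (0.96). Ramp1 was closest to Pstpip1 (0.99), Ramp2 to Eya3 (0.91), Ramp3 to Ilf2 (0.92), Adm to Plcxd1 (0.92) and Crcp to Rtel1 (0.93). For comparison, the highest r of a gene with any other had a median of 0.95 over these genes, with a 5th percentile of 0.913 and a 95th percentile of 0.982. The highest r of Ramp1, 0.988, lay above that 95th percentile, and that of Calcb, 0.981, just below it. Those of Calcrl, Calca, Ramp3, Adm and Crcp lay below the median, and that of Ramp2, 0.906, lay below the 5th percentile.

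Markers of the cells that express these genes were read beside them. In bulk tissue, fewer cells of a type and less RNA per cell cannot be told apart. Of 8 motor neuron markers, 2 were higher and 6 lower in value, with 0 at an unadjusted p under 0.05 and a median log2 fold change of -0.07. Their summed level ran from 408 to 596 CPM with paclitaxel and from 510 to 649 CPM with vehicle. Paclitaxel replicate 3, the library lowest in Calca and Calcb, was also the lowest here. Calca had r = 0.78 with the motor neuron sum (permutation p = 0.00988, rho 0.62, permutation p = 0.0606) and 0.82 without the 2 libraries farthest from its median. For Calcb r was 0.83 (permutation p = 0.0115, rho 0.56, permutation p = 0.0977) and 0.04 without the 2 farthest libraries, so that relation rests on paclitaxel replicate 3 and vehicle replicate 3. The peptide genes had similar r with other cell types: with endothelium 0.73 for both Calca and Calcb (permutation p = 0.0157 and 0.0179, rho 0.59 and 0.54, permutation p = 0.0812 and 0.113), and with pericytes and smooth muscle 0.76 and 0.79 (permutation p = 0.00877 and 0.03695, rho 0.45 and 0.21, permutation p = 0.194 and 0.564). Without the 2 farthest libraries, one of them paclitaxel replicate 3 in each case, these were 0.52 and 0.43 with endothelium and 0.50 and 0.01 with pericytes and smooth muscle. Of 24 such relations to motor neuron, endothelial and mural markers, chosen after the data were seen, 7 had a permutation p under 0.05 and 0 passed after adjustment (lowest adjusted p = 0.0859). The share of all genes with such a relation was not worked out. These sums were all lowest in paclitaxel replicate 3, so the count is not a result about these genes.

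Set against the motor neuron sum, Calca was 4.18% ± 0.32 of it with paclitaxel and 5.401% ± 1.13 with vehicle (SD, n = 5 each), a log2 difference of -0.35 (exact permutation test, two-sided, p = 0.0476). Calcb was 1.49% ± 0.23 of it with paclitaxel and 1.91% ± 0.29 with vehicle (SD, n = 5 each), a log2 difference of -0.36 (exact permutation p = 0.0476). Without paclitaxel replicate 3 the differences were -0.31 and -0.25 (exact permutation p = 0.0794 and 0.0952), and without vehicle replicate 4 as well they were -0.20 and -0.19 (exact permutation p = 0.171 for both). This test was not run on all genes, so no background share stands beside these p-values. Defining markers of dorsal root ganglion neurons were at or near 0: Mrgprd had 0 counts in every library, Trpv1 and Scn10a at most 1, and Avil, Scn11a and Prdm12 at most 3. Of that list of 11 genes 4 passed the filter on low counts, 2 higher and 2 lower in value, and its summed level, from 1799 to 2736 CPM with paclitaxel and from 2435 to 2791 CPM with vehicle, is nearly all Nefh, which motor neurons also express.

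Endothelium, which uses Calcrl with Ramp2, was covered by 10 markers, of which 4 were higher and 6 lower in value with a median log2 fold change of -0.04. At an unadjusted p under 0.05 there were 0 higher and 1 lower, Esam, a junction protein gene. The summed level ran from 122 to 232 CPM with paclitaxel and from 138 to 214 CPM with vehicle, and Calcrl had r = -0.38 with it (permutation p = 0.282; rho -0.42, permutation p = 0.231; r = -0.01 without the 2 farthest libraries). Paclitaxel replicate 3, the highest in Calcrl, had the lowest endothelial sum. Of 8 markers of pericytes and smooth muscle, 1 was higher and 7 lower in value, with 1 in each direction at an unadjusted p under 0.05, and their sum ran from 97.9 to 164 CPM with paclitaxel and from 132 to 157 CPM with vehicle. Vehicle replicate 4, lowest in Calcrl and highest in Calca, had a summed level of 116 CPM for markers of meninges and fibroblasts, against 57.5 to 72.3 CPM in all other libraries. Markers of dorsal horn neurons, which receive CGRP input, were split in direction: of 8 excitatory markers tested 3 were higher and 5 lower in value, and of 9 inhibitory markers 4 were higher and 5 lower. The part of these markers in the results was not tested beyond the values given here.

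Of 5 relatives of the receptor and peptides, 4 were too low to be tested. Calcr, the calcitonin receptor gene, whose protein forms amylin receptors with RAMPs, had at most 6 reads in a library. Iapp and Adm2, the genes of amylin and of adrenomedullin 2, had 0 reads in all 10 libraries, which allows up to 0.385 to 0.816 CPM per library. Ackr3, a scavenging receptor for a chemokine that also takes up adrenomedullin, could be tested. It averaged 8.60 ± 1.96 CPM in paclitaxel libraries and 7.12 ± 1.38 CPM in vehicle libraries (SD, n = 5 each), a log2 fold change of 0.30 (adjusted p = 0.811 from edgeR).

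Signalling genes after the receptor did not pass. Of 11 genes of Gs proteins and adenylyl cyclases, which make cyclic AMP, 3 were higher and 8 lower in value, with 0 at an unadjusted p under 0.05 and a median log2 fold change of -0.05. Lowest in p were Adcy4 at -0.50 (SE 0.26), Adcy8 at -0.11 (SE 0.07), Adcy3 at -0.09 (SE 0.07) and Adcy9 at -0.08 (SE 0.06). Of 14 genes of protein kinase A, the CREB family and phosphodiesterases of cyclic AMP, 7 were higher and 7 lower, also with 0 at an unadjusted p under 0.05. Prkacb, a catalytic subunit of protein kinase A, stood at 0.08, Pde4a at -0.09, Prkar1b at -0.05 and Pde4b at 0.07. The summed level of these 14 genes ran from 2932 to 3016 CPM with paclitaxel and from 2935 to 2994 CPM with vehicle.

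Genes for receptor trafficking and desensitisation were split evenly in direction, 5 of 10 higher and 5 lower. At an unadjusted p under 0.05 there was 1, Grk5, a receptor kinase gene, at 9.64 ± 2.39 CPM in paclitaxel libraries and 12.3 ± 1.38 CPM in vehicle libraries (SD, n = 5 each). For Grk5 the log2 fold change was -0.34 with an SE of 0.15 (adjusted p = 0.792 from edgeR). The β-arrestin gene Arrb2 was at -0.18, Rab5a of early endosomes at 0.10 and Adrbk2, another receptor kinase gene, at 0.06. Among 9 genes of peptide processing and degradation, 5 were higher and 4 lower, and again 1 had an unadjusted p under 0.05. This was Chga, a granin gene of dense-core vesicles, at 382 ± 22.2 CPM in paclitaxel libraries and 422 ± 25.97 CPM in vehicle libraries (SD, n = 5 each). For Chga the log2 fold change was -0.15 with an SE of 0.05 (adjusted p = 0.792 from edgeR). The carboxypeptidase gene Cpe stood at 0.07, Scg5 at 0.14 and the amidating enzyme gene Pam, which finishes CGRP and adrenomedullin, at 0.07.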

How the data were processed

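Lumbar spinal cord RNA was made into mRNA libraries and sequenced on an Illumina instrument, per the labels' protocols. The deposited table holds the authors' RSEM expected counts per gene with RefSeq transcripts, not scaled to depth. STAR, RSEM and edgeR 4.2.0 with build mm10 are named per the submitters' processing notes; other settings, strand included, are not given in these sources. Values (5.04% not whole) were rounded. Counts were filtered with filterByExpr (minimum 10, total 15) in edgeR 4.0.16 (R 4.3.3), scaled by TMM and tested by the quasi-likelihood test with Benjamini-Hochberg adjustment over all genes (threshold 0.05, two-sided). CPM uses TMM-scaled totals, with a prior count of 2 on the log2 scale. Log2 ratios to Calcrl and their tests used counts plus 0.5, while the per-length ratios given by library and as means used counts with nothing added. Correlations used 100000 permutations, within groups for deviations from group means. Lengths came from GENCODE M21 transcripts (2 of 4 for Calca) and gene coordinates from RefSeq. Chi-square per degree of freedom between libraries of a group was 1.59 to 6.55, more than counting error alone gives. Each library was counted as a replicate, but this spread does not show that they came from separate animals. The scripts were tested on simulated data. Members, lists and tests were chosen with earlier results of these data known. Named were the 8 genes, the 5 genes most like Calcrl and Calca and the 3 most like the others (first only for Ramp1, Ramp2, Ramp3, Adm and Crcp), and up to 4 genes of lowest p per pathway list. Marker genes and Calcr, Iapp and Adm2 were named after their values were seen. Alternatives were other scalings, filters and tests (DESeq2 1.42.0, limma 3.58.1), a replicate block, a GC content and length correction, thinning, and leaving out libraries.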

Additional observations from a re-analysis of the deposited data

How the results depend on the processing

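Over the alternatives tried, 0 of the 8 genes passed over all genes, and Calcrl, Ramp1, Calca and Calcb kept their direction in log2 fold change. Over all genes 1 was called with DESeq2, 1 with the replicate block and 1 with that block and the GC content and length correction, against 0. Genes at an unadjusted p under 0.05 numbered 508 without paclitaxel replicate 3 and vehicle replicate 4 together, and 515 to 1299 with each library left out in turn. With limma-voom and sample quality weights the log2 fold changes of Ramp3, Adm and Crcp were -0.022, -0.027 and -0.041, and without that pair of libraries Ramp3 was at -0.15 and Crcp at -0.081. Leaving out each library in turn gave log2 fold changes of 0.39 to 0.59 for Calcrl, 0.02 to 0.09 for Ramp1, -0.0096 to 0.17 for Ramp2, -0.092 to 0.29 for Ramp3, -0.55 to -0.29 for Calca, -0.48 to -0.23 for Calcb, -0.084 to 0.19 for Adm and -0.039 to 0.076 for Crcp. The unadjusted edgeR p under 0.05 was lost for Calca in 8 and for Calcb in 6 of these 10 leave-outs, and for both with the replicate block (0.109 and 0.0591). With the GC content and length correction Calcrl was at 0.35 and Ramp2 at 0.21. Thinned to the smallest library, Ramp3 was too low to be tested.

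The log2 ratio of Ramp1 to Calcrl passed with a count of 2 added, at -0.43 (exact permutation p = 0.0397), and without vehicle replicate 1 Ramp1, Ramp2, Ramp3 and Adm all passed (exact permutation p from 0.00794 to 0.0476). Of the 10 single leave-outs, Calca lost its exact p under 0.05 in 6, Calcb in 2 and Crcp in 7. Without the pair of libraries the ratio differences were -0.55 for Calca, -0.53 for Calcb and -0.41 for Crcp, and none of these 3 had an exact permutation p under 0.05. With the replicate block, an exact sign-flip test whose smallest p is 0.0625, they were -0.92, -0.92 and -0.46 (p = 0.125 each). With each library left out they ran from -0.56 to -0.35 for Ramp1, -0.56 to -0.25 for Ramp2, -0.59 to -0.24 for Ramp3, -1.07 to -0.73 for Calca, -1.08 to -0.67 for Calcb, -0.60 to -0.17 for Adm and -0.59 to -0.36 for Crcp. The level of Ramp1 was 73.1 CPM per kilobase with the median transcript length. In deviations from group means, r with Calcrl was -0.093 for Ramp2, -0.56 for Calca and -0.45 for Calcb, and Spearman rho was -0.079 for Ramp2 and -0.030 for Crcp. With each library left out, r with Calcrl ran from -0.069 to 0.44 for Ramp1, -0.31 to 0.30 for Ramp2, -0.12 to 0.29 for Ramp3, -0.82 to -0.61 for Calca, -0.74 to -0.59 for Calcb, -0.47 to 0.49 for Adm and -0.34 to 0.33 for Crcp, and r of Calca with Calcb from 0.87 to 0.94. The causes of these shifts were not tested. Same-numbered libraries did not deviate together (r from -0.10 to 0.14, and 2 of 5 numbers matched best with their own), so the numbers were not taken as pairs. Depth limits Ramp3 and Adm, whose counting error is near the spread between libraries.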
